A study of Mus musculus with 3 samples.

Results

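The comparison described here sets chromatin accessibility in the library labelled as Fat1 cKO Epcam+ over that in the library labelled as control Epcam+, from mouse skin squamous cell carcinomas. Its members were the regions off the mitochondrial chromosome that held 20 counts or more in either library, and these were 53678 of 95840 regions (56.0%). Tumours were induced with DMBA, a mutagen, followed by TPA, a tumour promoter, in mice of mixed background. The control tumour was K14Cre;RYFP and the other tumours were K14Cre;Fat1fl/fl;RYFP, so both genotypes carried a Cre recombinase driven by the keratin 14 promoter, which is active in basal cells of stratified epithelia, and a YFP reporter. The floxed Fat1 allele was carried only by the second genotype and can be lost only in cells that expressed Cre or descend from them. Tumour cells were sorted by flow cytometry on Epcam, a surface glycoprotein of epithelial cells, and one more library, labelled as Fat1 cKO Epcam-, is given beside the pair as values. The labels give no age or sex, and not how many tumours or animals stand behind a library. Each group had 1 library, so no spread between tumours could be measured, no test between conditions was possible, and every interval below covers counting error only.

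ATAC-seq uses the Tn5 transposase to cut and tag DNA that is not covered by nucleosomes, so counts pile up at active promoters and at distal enhancers. Promoters are often open in many cell types, whereas distal elements tend to be open in the cell types that use them, and the distal elements of one gene may lie many kilobases from its start. Fat1 is a giant protocadherin at cell contacts that acts as a tumour suppressor in squamous epithelium. Squamous carcinoma cells can lie anywhere between an epithelial state, held by factors such as Grhl2, Ovol1 and Esrp1 and by the miR-200 and miR-205 microRNAs, and a mesenchymal state, in which Zeb and Snail repressors bind an E-box at promoters of epithelial genes.

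Nuclear counts were 4335304 in the library labelled as control Epcam+, 3812880 in that labelled as Fat1 cKO Epcam+ and 5485317 in that labelled as Fat1 cKO Epcam-, and 39.1% to 42.6% of all counts were mitochondrial. Triplets of counts below keep this order and are not scaled: 3 counts are 0.665, 0.820 and 0.545 CPM (counts scaled to an effective library of 1000000) in the 3 libraries. A log2 ratio is the scaled count of the library labelled as Fat1 cKO Epcam+ over that of the library labelled as control Epcam+, so that 1 is 2-fold higher. Intervals in brackets are exact 95% intervals of that ratio. Regions on the Y chromosome held 339, 218 and 1196 counts, which are 75.2, 59.6 and 217 CPM. There the pair was closer together than the libraries with the Fat1 label were to each other, and the cause was not tested.

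The column names were set against the deposited peak calls before any direction was read. Among the kept regions called as a peak only in Fat1 cKO Epcam+, 2987 of 3613 (82.7%) were at least 2-fold higher in the count column of that name and 0 were lower, so peak calls and counts of this library went together. Of 18422 regions called only in control Epcam+, 2155 reached the minimum count in the pair and were kept. For regions called only in Fat1 cKO Epcam+ this was 3613 of 5353, and for Fat1 cKO Epcam- 7384 of 10758. The 18422 regions had median counts of 9, 7 and 29, so the column labelled as control Epcam+ was low in most of them. In the 2155 kept ones the pair differed little, with 19.3% higher, 12.9% lower and a median log2 ratio of 0.07. Regions called only in Fat1 cKO Epcam- were the ones in which the column labelled as control Epcam+ was high: 4645 of 7384 (62.9%) were lower by 2-fold or more in the library labelled as Fat1 cKO Epcam+ (median -1.29). Were the names control Epcam+ and Fat1 cKO Epcam- exchanged between count columns, the pair would be Fat1 cKO Epcam+ over Fat1 cKO Epcam-. The column labelled as control Epcam+ was also the lowest of the 3 at the Epcam start (15.3 CPM, against 56.1 and 59.6). It was lowest in summed epithelial markers (626 CPM, against 1947 and 1926) and highest in mesenchymal ones (1701 CPM, against 1192 and 754). Whether names were exchanged was not tested. Every direction below is therefore a direction between the libraries as labelled, which need not be Fat1 cKO over control.

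**Figure D1:**
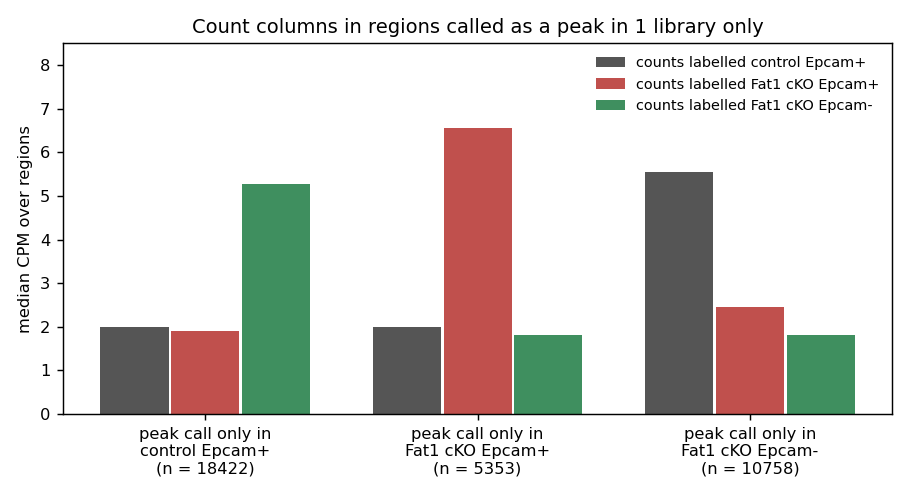
Median CPM (vertical axis) of each count column over the regions called as a peak in 1 library only, with bars coloured by column label. In regions called only in control Epcam+ the highest column is the one labelled as Fat1 cKO Epcam- (5.27 CPM against 1.996), and in regions called only in Fat1 cKO Epcam- it is the one labelled as control Epcam+ (5.55 CPM against 1.82).

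Epcam itself was lower in the library labelled as control Epcam+. Its start region at chr17:87635827-87637328 held 69, 205 and 328 counts (log2 ratio 1.84 [1.47, 2.29]). Of the 5 regions upstream, 4 were also at least 2-fold higher, and the farthest, at chr17:87603161-87603801, held 18, 113 and 20 counts (2.82 [2.23, 3.76]). That distal region was thus high only in the library labelled as Fat1 cKO Epcam+, whereas the start region was high in both libraries with the Fat1 label. The remaining upstream region held 60, 65 and 59 counts (0.41 [-0.11, 0.95]).

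Fat1, the targeted gene, kept counts in 2 regions inside the gene near its start in all 3 libraries. The region at chr8:44934632-44936361, 1532 bp from the nearest gene end, held 181, 169 and 385 counts (0.20 [-0.11, 0.51]). The next, at chr8:44937329-44938660 and 4229 bp from that end, held 228, 163 and 282 (-0.18 [-0.48, 0.11]). Neither interval excluded equal accessibility. Upstream of the gene, 4 of the 4 kept regions were at least 2-fold higher, among them chr8:44924636-44925622 with 33, 81 and 146 counts (1.54 [0.997, 2.23]). An upstream region below the minimum count went the other way with 18, 4 and 36 counts (-1.53 [-3.89, -0.27]). Farther inside the gene, chr8:45001427-45002054 was lower with 57, 14 and 49 counts (-1.62 [-2.68, -0.86]). Another kept region there, chr8:44978230-44979280, stayed under 2-fold with 52, 50 and 82 (0.24 [-0.34, 0.83]). The 2 weaker kept regions were higher, with 10, 21 and 32 counts (1.22 [0.22, 2.62]) and 16, 29 and 21 (1.07 [0.23, 2.14]). The labels do not name the exons that the floxed allele spans, so these regions do not check the deletion.

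Start windows of 7 genes are printed next to show the E-box of Zeb and Snail, which was found more often in higher than in lower windows. Each sequence is the 250 bases before the gene start from RefSeq (GRCm38.p6), 5′ to 3′ on the gene's strand. The windows counted in the shares below run 50 bases further, and the coordinates beside each gene are those of these longer windows. Capitals mark CACCTG or its reverse complement CAGGTG, the E-box, and the AP-1 motif TGANTCA. The first 5 genes were higher in the library labelled as Fat1 cKO Epcam+ and the last 2 were lower. They were picked for display after their values were seen and are not the 7 with the largest ratios.
Cldn7, chr11:69965171-69965470, plus strand: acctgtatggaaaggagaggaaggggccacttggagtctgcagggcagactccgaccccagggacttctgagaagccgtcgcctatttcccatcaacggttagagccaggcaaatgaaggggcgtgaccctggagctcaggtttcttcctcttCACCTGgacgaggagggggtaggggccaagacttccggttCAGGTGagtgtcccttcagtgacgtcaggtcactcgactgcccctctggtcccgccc
Ildr1, chr16:36693728-36694027, plus strand: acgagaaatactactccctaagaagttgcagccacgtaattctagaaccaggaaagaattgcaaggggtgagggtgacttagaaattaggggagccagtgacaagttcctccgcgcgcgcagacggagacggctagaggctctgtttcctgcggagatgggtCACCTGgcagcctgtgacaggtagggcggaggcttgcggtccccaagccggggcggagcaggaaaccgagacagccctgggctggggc
Krt8, chr15:102004293-102004592, minus strand: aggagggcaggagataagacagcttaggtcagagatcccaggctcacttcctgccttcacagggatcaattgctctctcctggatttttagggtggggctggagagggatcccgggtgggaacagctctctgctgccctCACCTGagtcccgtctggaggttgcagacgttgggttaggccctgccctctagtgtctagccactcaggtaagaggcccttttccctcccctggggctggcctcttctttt
Crb3, chr17:57061981-57062280, plus strand: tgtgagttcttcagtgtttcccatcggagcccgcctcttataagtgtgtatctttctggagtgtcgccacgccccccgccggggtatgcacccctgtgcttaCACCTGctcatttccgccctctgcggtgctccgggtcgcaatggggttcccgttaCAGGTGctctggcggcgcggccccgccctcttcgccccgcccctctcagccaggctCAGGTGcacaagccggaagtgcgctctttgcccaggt
Epcam, chr17:87635729-87636028, plus strand: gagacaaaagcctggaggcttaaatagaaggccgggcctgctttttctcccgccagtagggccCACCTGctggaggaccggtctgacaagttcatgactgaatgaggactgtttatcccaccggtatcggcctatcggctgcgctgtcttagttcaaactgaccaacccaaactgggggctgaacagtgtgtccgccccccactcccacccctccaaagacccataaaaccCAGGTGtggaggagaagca
Emilin1, chr5:30913536-30913835, plus strand: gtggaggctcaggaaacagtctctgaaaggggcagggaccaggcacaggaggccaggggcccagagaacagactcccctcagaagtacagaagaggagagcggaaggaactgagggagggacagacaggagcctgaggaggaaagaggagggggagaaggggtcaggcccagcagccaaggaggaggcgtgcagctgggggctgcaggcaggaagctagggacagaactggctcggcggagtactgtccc
Sall1, chr8:89042813-89043112, minus strand: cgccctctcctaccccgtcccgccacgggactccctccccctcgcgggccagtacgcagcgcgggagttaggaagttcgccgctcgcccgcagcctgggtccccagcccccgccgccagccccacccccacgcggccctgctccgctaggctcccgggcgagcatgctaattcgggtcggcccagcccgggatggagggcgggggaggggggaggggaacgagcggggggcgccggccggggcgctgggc
In these bases Cldn7 and Epcam held 2 E-box matches each, Ildr1 and Krt8 held 1, and Crb3 held 3 with a further match across the start. Neither Emilin1 nor Sall1 held one. The printed windows split more cleanly than the rest: in the 300-base windows named by a fixed rule, the E-box was found in 5 of the 8 higher ones and in 2 of the 8 lower ones.

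The 7 genes printed differed as follows. Cldn7, a tight junction claudin, held 10, 85 and 20 counts in its start region (3.16 [2.44, 4.50]). Ildr1, a tricellular junction protein, held 14, 121 and 84 (3.24 [2.61, 4.33]). Krt8, a keratin of simple epithelia that also appears in advanced squamous tumours, held 33, 194 and 42 (2.79 [2.32, 3.44]). Cldn7 and Krt8 were high only in the library labelled as Fat1 cKO Epcam+, whereas Ildr1 was also high in that labelled as Fat1 cKO Epcam-. Crb3, an apical polarity protein, held 18, 71 and 135 counts (2.16 [1.52, 3.12]). Emilin1, an elastic fibre glycoprotein, held 154, 7 and 19 (-3.88 [-5.50, -3.08]). Sall1, a zinc finger factor of mesenchymal and embryonic tissues, held 224, 15 and 61 (-3.46 [-4.46, -2.85]). Both lower genes were highest in the library labelled as control Epcam+ and low in the other 2.

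The other start windows named by the same rule were Cldn3, a second claudin, with 24, 146 and 64 counts (2.81), Myh14, a non-muscle myosin heavy chain of epithelia, with 24, 153 and 59 (2.87), Cbr2 with 13, 83 and 49 (2.80), Gimap9 with 7, 62 and 49 (3.13) and Mill1 with 18, 110 and 80 (2.78). All were between the extremes in the library labelled as Fat1 cKO Epcam-. The windows of Cldn3 and Gimap9 held the E-box, and those of Myh14, Cbr2 and Mill1 did not. On the lower side stood Hdac9, a class II histone deacetylase, with 64, 2 and 13 counts (-3.89 [-7.77, -2.79]), Aqp1, a water channel, with 204, 26 and 14 (-2.60), Tspan11 with 205, 25 and 21 (-2.66), Chn1 with 66, 7 and 5 (-2.68), Rcan2, a calcineurin regulator, with 67, 6 and 8 (-2.88), and Sgip1 with 99, 11 and 89 (-2.70). For Sgip1 the library labelled as Fat1 cKO Epcam- was close to that labelled as control Epcam+ in counts, unlike the other lower starts. The windows of Sgip1 and Aqp1 held the E-box and those of the other lower starts did not.

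Over all protein-coding genes, 10295 of 17492 had a kept region over the start window, and these had a median log2 ratio of 0.04. By 2-fold or more, 520 (5.05%) were higher and 336 (3.26%) lower. The E-box was found in 217 of the 520 higher windows (41.7%, exact 95% interval 37.5% to 46.1%), in 48 of the 336 lower ones (14.3%, 10.7% to 18.5%) and in 1555 of 9439 between (16.5%, 15.7% to 17.2%), against 19.7% of all protein-coding windows. Its share climbed with the ratio, from 26.2% of 984 windows that were 1.4- to 2-fold higher to 39.3% of 425 and then to 52.6% of the 95 that were at least 4-fold higher. Read the other way, 24.6% of the 256 genes with 2 or more matches were at least 2-fold higher and 1.56% lower, whereas 3.58% of the 8475 genes without a match were higher and 3.40% lower. Windows are not independent samples, since neighbouring genes can share a region, so the intervals describe counting over windows only.

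The difference was present in each band of GC content. In windows under 50% GC the E-box was found in 31.4% of higher, 10.4% of lower and 11.3% of between windows, and at 70% GC or more in 43.2%, 17.5% and 17.4%. Other E-boxes showed no such difference between higher and lower windows: CAGCTG was found in 18.8% and 19.3%, CACGTG in 8.65% and 8.04%. The AP-1 motif was more frequent on both sides, in 11.3% of higher and 9.82% of lower windows against 4.49% of those between. For the TEAD motif GGAATG the shares were 15.4%, 11.6% and 11.1%, for the Runx motif TGTGGT 17.5%, 11.3% and 11.4%, for the grainyhead motif AACCNGTT 2.88%, 2.08% and 1.61%, and for the Sp/Klf motif GGGNGG close to 9 in 10 windows in each. All motifs were searched on both strands, and a match describes letters, not binding.

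**Figure D2:**
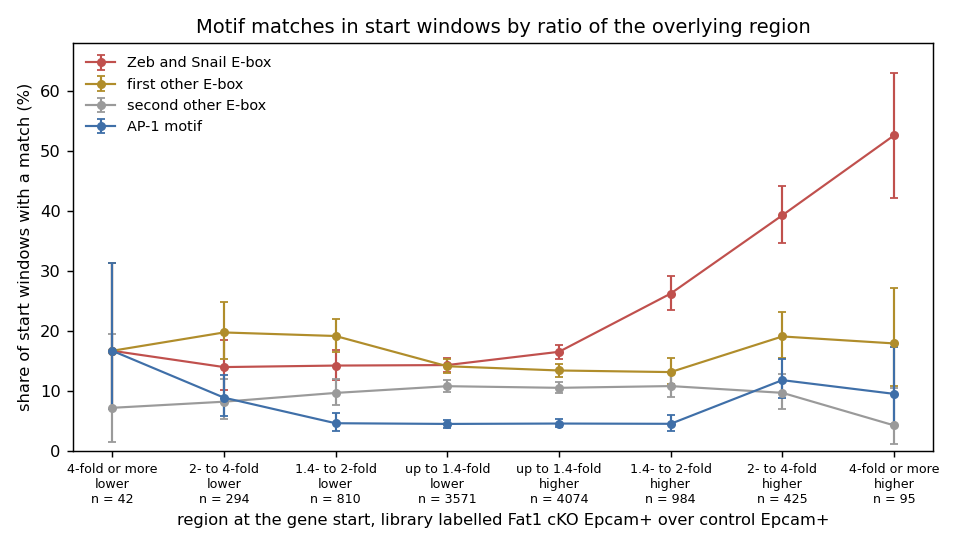
Share of start windows (vertical axis, percent, with exact 95% intervals) that held the Zeb and Snail E-box, the E-box centred on GC (first other), the E-box centred on CG (second other) or the AP-1 motif, by ratio of the overlying region (horizontal axis, n genes under each bin). The Zeb and Snail E-box climbs to 52.6% in the windows that were at least 4-fold higher, while the first other E-box stands at 17.9% there.

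The mature microRNAs at the loci described next are printed because members of the miR-200 family share seeds and target Zeb factors, and because miR-199a and miR-214 are transcribed from mesenchymal loci. Sequences are from RefSeq (GRCm38.p6), 5′ to 3′, with the seed, bases 2 to 8, in capitals.
miR-200b-3p: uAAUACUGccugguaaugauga
miR-200c-3p: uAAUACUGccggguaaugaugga
miR-429-3p: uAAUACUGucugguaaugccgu
miR-200a-3p: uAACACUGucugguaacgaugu
miR-141-3p: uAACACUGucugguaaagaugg
miR-205-5p: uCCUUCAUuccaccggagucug
miR-203-3p: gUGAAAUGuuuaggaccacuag
miR-199a-3p: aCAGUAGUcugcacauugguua
miR-214-3p: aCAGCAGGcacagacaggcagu
The first 3 share one seed, miR-200a and miR-141 share another, and the other 4 each have a seed of their own.

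Each miR-200 cluster had a region that was higher in the library labelled as Fat1 cKO Epcam+. The region 3144 bp from the Mir200b, Mir200a and Mir429 hairpins, chr4:156058894-156060215, held 57, 296 and 365 counts (2.64 [2.27, 3.11]). Over the Mir200c and Mir141 hairpins, chr6:124718081-124719556 held 22, 130 and 127 counts (2.76 [2.21, 3.59]). They were 6.22-fold and 6.77-fold apart in the pair, and the library labelled as Fat1 cKO Epcam- was also above that labelled as control Epcam+ at both. Not all regions of the clusters followed. The region over the Mir200b cluster itself held 3, 4 and 21 counts, below the minimum. At Mir200c and Mir141 a region 5010 bp away held 256, 278 and 234 (0.42 [0.17, 0.67]), and the sum over the 3 regions within 10 kb, 294, 440 and 436 counts, stayed under 2-fold (0.88 [0.67, 1.10]). Mir205, a microRNA of basal epithelial cells, had 4 of 5 kept regions within 10 kb at least 2-fold higher, the closest with 11, 56 and 123 counts (2.45 [1.70, 3.73]). The region over Mir203, which is induced in differentiating keratinocytes, held 89, 165 and 359 (1.17 [0.81, 1.58]), and that near the Mir183, Mir96 and Mir182 cluster held 219, 605 and 528 (1.76 [1.54, 1.997]).

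Both loci of miR-199a went the other way. Over Mir199a-1, chr9:21496457-21498050 held 135, 18 and 37 counts (-2.50 [-3.40, -1.89]), and over Mir199a-2, chr1:162216805-162218120 held 168, 37 and 18 (-1.84 [-2.44, -1.36]). A region 1012 bp from the Mir199a-2 and Mir214 pair held 50, 12 and 15 counts (-1.63 [-2.80, -0.83]). Summed within 10 kb, Mir199a-1 stood at -1.87 and Mir199a-2 at -1.23, while Mir199b, a related locus, stood at -0.58. Mir21a, which is abundant in most carcinomas, did not reach 2-fold, with 763, 589 and 808 counts summed over 5 regions (-0.07 [-0.23, 0.09]). Mir221 and Mir222, which lie side by side on the X chromosome and share 1 region, were higher with 6, 23 and 24 (1.93 [0.90, 3.83]). Mir10b was lower with 30, 9 and 32 (-1.29 [-2.69, -0.32]). Mir21a, Mir221, Mir222 and Mir10b had been listed as mesenchymal together with the miR-199 and miR-214 loci, so the mesenchymal loci did not all go one way. Accessibility at a hairpin does not measure the microRNA.

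Over all kept regions, 10072 (18.8%) were higher and 8763 (16.3%) lower by 2-fold or more, while 34843 (64.9%) lay between and the median log2 ratio was 0.02. For 4282 higher and 2554 lower regions the whole counting interval lay beyond 2-fold. Regions at the minimum of 20 counts were 2-fold apart in 39.5% of 1606 cases, and those just under it, at 19 counts, in 33.5% of 1756. In the weakest of 5 equal classes of level 22.6% were higher and 36.1% lower, and in the strongest 6.38% and 1.69%. The minimum is set in counts, so in CPM it is lower for the library labelled as control Epcam+, whose effective size is larger. Weak regions were therefore kept more easily where that library was the higher of the pair. The shares higher and lower in the weakest class do not stand on equal terms.

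The shares differed with distance from genes. Within 1 kb of a gene end, 7.90% of 12811 regions were at least 2-fold higher and 5.15% lower. At 1 to 10 kb the shares were 20.3% and 15.5% of 11278, at 10 to 50 kb 22.2% and 19.8% of 16873, and beyond 50 kb 23.9% and 23.7% of 12716. Regions near gene ends were also wider and stronger, and the share apart depends on the level as given above. Within the middle of 5 equal width classes the shares were 9.92% and 6.69% within 1 kb against 23.0% and 22.6% beyond 50 kb. Level was not matched there, with a median of 14.3 CPM within 1 kb and 8.28 CPM beyond 50 kb, and its part in the difference was not tested.

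**Figure D3:**
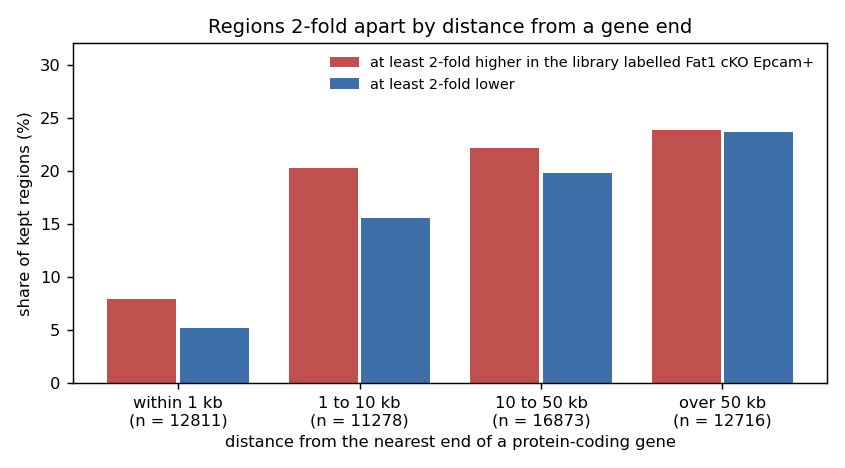
Share of kept regions (vertical axis, percent) at least 2-fold higher or lower in the library labelled as Fat1 cKO Epcam+, by distance from the nearest end of a protein-coding gene (horizontal axis, n regions per class). Shares rise from 7.90% higher and 5.15% lower within 1 kb to 23.9% and 23.7% beyond 50 kb, where both directions are about as frequent.

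Regions far from gene ends gave some of the largest ratios on the higher side. A region 72135 bp from Inhba, which encodes the activin A subunit, at chr13:15931401-15932121, held 4, 110 and 29 counts (4.52 [3.69, 6.98]). A region 105714 bp from Cldn1, a claudin of the epidermal barrier, at chr16:26250438-26250931, held 3, 58 and 53 (3.88 [2.96, 6.89]). Near Edar, the ectodysplasin receptor of skin appendages, chr10:58690755-58691389 held 4, 74 and 29 (3.96 [3.09, 6.42]). In the library labelled as Fat1 cKO Epcam- the Cldn1 region came closest to that labelled as Fat1 cKO Epcam+.

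Further higher regions lay inside Rhof, a small GTPase of filopodia, with 2, 57 and 16 counts (4.18 [3.22, 8.21]), inside Bcl2l14 with 6, 103 and 50 (4.01 [3.23, 5.88]), inside Pmm1 with 8, 122 and 51 (3.93), inside Taf8 with 4, 74 and 45 (3.96) and inside Stox2 with 2, 52 and 13 (4.05). The nearest gene is a label of position, and in Taf8 or Pmm1 the region may serve another gene. Far from any gene, a region 528579 bp from Galr1 held 13, 250 and 20 counts (4.37 [3.77, 5.50]) and one 345128 bp from Grin2a held 4, 82 and 12 (4.11 [3.25, 6.57]); both were nearly silent in the other 2 libraries.

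On the lower side, a region inside Dlgap2, a postsynaptic scaffold gene, at chr8:14467835-14468866, held 191, 4 and 14 counts (-4.80 [-7.17, -3.90]), and one inside Mindy4, at chr6:55264645-55265590, held 230, 7 and 7 (-4.45 [-6.07, -3.67]). At 7293 bp from an end of Ankrd16, chr2:11797620-11798634 held 110, 2 and 7 (-4.65 [-8.54, -3.59]). These 3 were high only in the library labelled as control Epcam+. A region 257400 bp from Pcdh18, a protocadherin, held 76, 1 and 3 counts, and one 770453 bp from Grik2 held 78, 2 and 2. One 32213 bp from Dysf, the membrane repair gene dysferlin, held 75, 2 and 3, and one inside Fam13a held 87, 2 and 12. These too were high only in the library labelled as control Epcam+. At 42725 bp from Pou2f1, chr1:166045474-166045968 held 50, 0 and 12 counts, which with 0 read as up to 3 counts was at least 13.5-fold lower. All 15 lower regions named by this rule were called as a peak in Fat1 cKO Epcam- and not in Fat1 cKO Epcam+, and only Sall1 and Ido2 were also called in control Epcam+.

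Some of the regions that differed sat in runs, though most were single. Counting neighbours less than 50 kb apart with no kept region between them that failed the 2-fold rule, 2423 higher regions (24.1%) sat in 610 runs of 3 or more and 1918 lower regions (21.9%) in 493. Single regions made up 52.1% of the higher and 56.7% of the lower. Runs of 5 or more numbered 132 and 95.

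The longest higher runs held 13 regions each. One lay by Rassf10, chr7:112953609-113122576, and summed to 288, 944 and 768 counts with a median log2 ratio of 1.96. Another crossed the type I keratin cluster from Krt19 to Krt17, with Krt14 and Krt16, the keratins of basal and of activated keratinocytes, at chr11:100145730-100262596, with 311, 1148 and 1319 counts and a median of 1.95. The third lay at Eva1a, an autophagy regulator, with 318, 1052 and 942 counts (median 1.84). Runs of 12 covered Grhl3, a grainyhead factor of the epidermal barrier, with its neighbours at chr4:135493746-135675790 (273, 827 and 1169 counts, median 1.74), and Tgfa, an EGF receptor ligand, with Add2 at chr6:86076422-86231314 (272, 1049 and 827 counts, median 1.90). In all 5 the library labelled as Fat1 cKO Epcam- was above that labelled as control Epcam+.

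The longest lower run, of 15 regions, spanned Rgl1, a Ral guanine nucleotide exchange factor, at chr1:152514273-152703180 and summed to 708, 130 and 299 counts (median -2.08). A run of 14 lay in Dlgap2 at chr8:14539443-14732386 with 981, 162 and 346 counts (median -2.04). Runs of 11 lay by Gad2 and Apbb1ip (471, 98 and 173 counts, median -1.79), by Slc16a10, an aromatic amino acid transporter, and its Mfsd4b neighbours (785, 120 and 630, median -2.55), and by Rcan2 and Enpp5 (488, 83 and 205, median -2.12). In the library labelled as Fat1 cKO Epcam- all 5 runs lay between the pair, the Slc16a10 run nearest to that labelled as control Epcam+.

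Summed over the regions assigned to each gene, 15239 genes could be compared, of which 1095 (7.19%) were higher and 651 (4.27%) lower by 2-fold or more, around a median log2 ratio of 0.05. With library size taken as total nuclear counts instead, the split was 878 higher to 848 lower and the median over kept regions moved from 0.02 to -0.10, so the excess of higher genes over lower ones depends on the scaling. Genes with at least 1 region apart in only 1 direction numbered 3070 higher and 2504 lower.

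The 10 genes with most higher regions and no lower one had 10 to 14 higher regions each. Grhl2, a grainyhead factor that maintains epithelial junction genes, had 12 of 15 kept regions higher, and its sum was 321, 836 and 1093 counts (1.68 [1.50, 1.87]). Casz1, a zinc finger factor, had 13 of 15 (508, 1102 and 1839 counts, 1.42 [1.27, 1.57]), Kazn, a cornified envelope protein gene, 11 of 12 (311, 851 and 1346, 1.75 [1.57, 1.95]) and Eva1a 14 of 15 (374, 1118 and 1081, 1.88 [1.71, 2.05]). In CPM the library labelled as Fat1 cKO Epcam- was about as high for Casz1 and Kazn (334 and 245 CPM, against 301 and 233) and lower for Grhl2 and Eva1a (199 and 197, against 229 and 306). Ctnna2, an alpha-catenin best known from neurons, had 11 of 12 higher (192, 920 and 610 counts, 2.55 [2.34, 2.79]), and Smoc1, a matricellular BMP modulator, 10 of 10 (109, 398 and 239, 2.15 [1.86, 2.49]). Tiam1, a Rac exchange factor, had 11 of 24 (1.15), Kcnma1, a potassium channel, 11 of 18 (1.15), Glis3 11 of 14 (1.20) and Ptprn2 10 of 13 (1.22).

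Genes with most lower regions were led by Dlgap2, with 22 of 26 (1735, 367 and 992 counts, -1.93 [-2.11, -1.78]), Cdh13, the atypical T-cadherin, with 16 of 17 (1631, 390 and 947, -1.76 [-1.93, -1.60]), and Tenm3, a teneurin of cell contacts, with 16 of 21 (1275, 385 and 915, -1.42 [-1.59, -1.26]). Rgl1 had 15 of 15 (761, 151 and 338, -2.02 [-2.29, -1.78]), Gas7, an actin-binding protein, 15 of 20 (1279, 358 and 1340, -1.53) and Fmnl2, a formin of lamellipodia, 13 of 19 (1230, 387 and 1558, -1.36). In the library labelled as Fat1 cKO Epcam-, Gas7 and Fmnl2 were near the level of that labelled as control Epcam+ (244 and 283 CPM, against 284 and 273). Tns1, a focal adhesion tensin, had 13 of 20 (-1.18), Rcan2 11 of 11 (-1.97), Sipa1l2 11 of 13 (-1.82), and Chst11, a chondroitin sulfotransferase, 13 of 19 with a sum that stayed under 2-fold (-0.79). Dlgap2, Cdh13, Tenm3 and Sipa1l2 lie on chromosome 8, whose kept regions had a median log2 ratio of -0.19.

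**Figure D4:**
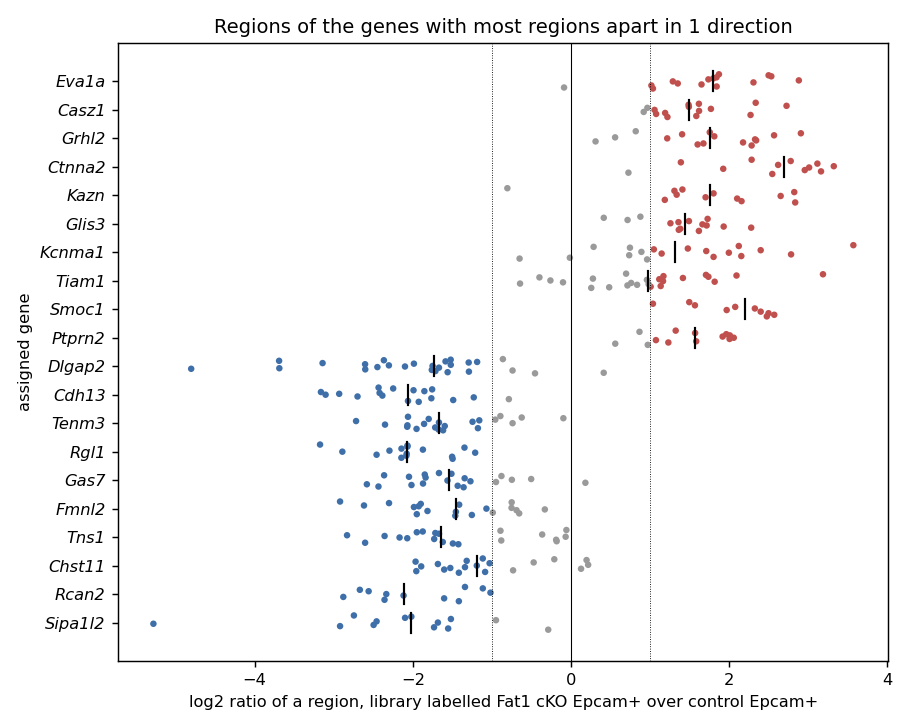
Log2 ratio of every kept region (points, horizontal axis) of the 10 genes with most higher and the 10 with most lower regions, with black bars at the median of each gene. Points past the dotted lines are at least 2-fold apart. Rgl1 and Rcan2 have every point below -1, and Smoc1 every point above 1.

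In the median, starts of such genes went the same way as the gene sum, by less. Among the 308 genes with at least 3 higher regions, no lower one and a kept start region, the start was at least 2-fold higher in 127 and between in 181 (58.8%), with a median start ratio of 0.74 against a median gene sum of 0.96. Among the 238 genes with at least 3 lower regions, 86 starts were lower and 152 (63.9%) between, with a median of -0.52 against -0.81. In the 5492 genes with no region apart the median start ratio was 0.02. Where the start region counts among the gene's regions, the choice itself excludes a start 2-fold apart in the opposite direction. These shares are therefore not independent of the choice and do not test whether starts and genes go together. Of the 20 genes above, the start passed 2-fold with its gene at Eva1a (1.65), Casz1 (1.19), Kazn (1.31), Kcnma1 (2.12), Tiam1 (1.82), Rcan2 (-2.88), Fmnl2 (-1.46) and Sipa1l2 (-1.52). It stayed under 2-fold in the same direction at Glis3 (0.88), Ptprn2 (0.56) and Chst11 (-0.73). At 2 genes it had the opposite sign. At Rgl1 all 15 kept regions assigned to the gene were lower, yet the region over the RefSeq start window held 223, 215 and 331 counts (0.25), and at Tns1 the start held 106, 145 and 175 counts (0.74) against a gene sum of -1.18. The other 7 genes had no kept region over the start window.

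Other genes held regions that went both ways: 1344 of 15239 genes (8.82%) had at least 1 higher and 1 lower region, and 1302 of these (96.9%) were under 2-fold when summed. They had a median of 8 kept regions, against 2 over all genes. Foxp1, a forkhead factor, had 12 higher and 7 lower of 43 kept regions and a summed log2 ratio of -0.06. Sox5 had 6 higher and 13 lower of 44 (2710, 2151 and 1513 counts, -0.03), Pde4d, a cAMP phosphodiesterase, 9 and 8 of 41 (0.10), and Lpp, a focal adhesion protein, 6 and 9 of 37 (-0.14). Pard3b, a polarity gene, had 7 and 6 of 18 (-0.02), and Prkch, a protein kinase C of keratinocytes, 7 and 6 of 21 (0.22). These genes were picked for regions apart both ways, and regions at the minimum count often passed 2-fold, as given above. A gene sum near 0 could thus cover regions that were 2-fold apart in size each way. How many of these regions differed beyond counting error was not tested.

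Gene lists were read by how many of their measured members passed 2-fold, beside 7.19% higher and 4.27% lower over all genes. Among markers of cell types, 15 of 18 epithelial genes were higher and 0 lower (median 1.75), and their summed level was 626, 1947 and 1926 CPM in the 3 libraries. Of 18 mesenchymal genes 0 were higher and 6 lower (median -0.63; 1701, 1192 and 754 CPM). Markers of immune cells (7 of 12 measured, median -0.08; 127, 129 and 107 CPM), of fibroblasts and pericytes (9 measured, -0.11; 429, 425 and 354 CPM), of endothelium (7 of 8 measured, -0.53; 272, 248 and 268 CPM) and of melanocytes (5 of 6 measured, 0.16; 245, 224 and 177 CPM) had counts in each library. Of these, Itgax, Kdr, Erg and Pi16 were at least 2-fold lower, and Rgs5 and Pmel at least 2-fold higher. In bulk libraries, fewer cells of a type and less signal per cell cannot be told apart, and the part that cell mixture plays in the results was not tested.

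Several lists of epithelial surface genes had higher members and none lower. Of the membrane serine proteases, kallikreins and their inhibitors, 13 of 22 measured genes were higher and 0 lower (median 1.07), and 42 of their 75 kept regions (56.0%) were higher against 1 lower, beside 18.8% and 16.3% over all kept regions. With total nuclear counts as the scale 8 of 22 genes were higher. Prss8, a channel-activating protease of the epidermal barrier, held 22, 80 and 87 counts (2.07 [1.47, 2.92]), Klk7, a corneodesmosome-cleaving kallikrein, 31, 107 and 135 (2.02 [1.50, 2.72]) and Tmprss4 20, 70 and 50 (2.01 [1.38, 2.90]). St14, which encodes matriptase, held 136, 377 and 614 (1.76), and Spint2, an inhibitor of matriptase and prostasin, 171, 526 and 497 (1.91). Protease and inhibitor were thus higher together, and all were above the library labelled as control Epcam+ in that labelled as Fat1 cKO Epcam- too. Prss8, Klk7 and Spint2 lie on chromosome 7, with a median of 0.14 over its regions.

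Of the apical mucin and polarity genes 7 of 21 were higher and 0 lower (median 0.67; 4 higher by the median of their regions), with Muc16, a tethered mucin, at 24, 167 and 55 counts (3.00 [2.48, 3.78]), Rab25, a GTPase of apical recycling, at 26, 77 and 78 (1.79 [1.21, 2.57]), Marveld2, a tricellular junction protein, at 75, 190 and 176 (1.62) and Crb3, as above. Epithelial channels, pumps and transporters had 8 of 22 higher and 0 lower (median 0.67), among them Slc39a4, a zinc importer, with 23, 190 and 34 counts (3.24 [2.72, 4.04]), Trpv6, a calcium channel, with 49, 163 and 52 (1.99 [1.57, 2.53]) and Atp6v1c2, a proton pump subunit, with 97, 430 and 189 (2.43 [2.13, 2.78]). Muc16, Slc39a4 and Trpv6 were high only in the library labelled as Fat1 cKO Epcam+. Of the gap junction genes 3 of 15 were higher and 0 lower (median 0.33), with Gjb6, an epidermal connexin, at 94, 207 and 323 counts (1.42).

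Eph receptors and their membrane-bound ephrin ligands, which sort cells at boundaries, lay above 0 in each measured member: the lowest of 18 was 0.10 and the median 0.46. Past 2-fold were 3, Ephb1 with 246, 609 and 678 counts (1.60 [1.39, 1.83]), Epha4 with 238, 486 and 789 (1.32) and Efna5 with 602, 1063 and 2159 (1.12), and 40 of the list's 97 kept regions (41.2%) were higher against 0 lower. The intervals of Epha7, Epha8, Efna2 and Efna4 included 0. The lowest member was -0.013 with total nuclear counts as the scale and -0.17 with chromosome medians set to 0. Semaphorins, plexins, slits, robos and netrins were not one-sided in this way, with 2 of 30 higher and 2 lower and a median of 0.05. Of their 222 kept regions 37 were higher (16.7%) and 56 lower (25.2%). Sema4d held 161, 364 and 646 counts (1.47) and Plxna2 961, 370 and 1572 (-1.07).

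Lists of matrix genes differed from one another. Of the matrix crosslinking and collagen processing enzymes 0 of 20 were higher and 0 lower (median -0.30), yet 30 of their 89 kept regions were lower (33.7%) against 2 higher. With total nuclear counts 2 of the genes were lower. Adamts2, a procollagen propeptidase, lay just inside the threshold with 781, 316 and 324 counts (-0.9999), and Adamts14 held 404, 173 and 139 (-0.92). Matrix glycoproteins were mixed, with 4 of 30 higher and 2 lower (median -0.02), and 34 of 131 kept regions were higher against 28 lower. Mfap4 rested on 1 region with 14, 35 and 10 counts (1.50 [0.69, 2.63]), Spon1 held 347, 596 and 327 (1.08), and Emilin1 200, 38 and 38 over 2 regions (-2.05 [-2.63, -1.59]). Integrin subunits and activators had 2 of 23 higher and 0 lower (median -0.15). These were the activator Fermt1, kindlin-1 of keratinocytes, with 92, 330 and 557 counts (2.12 [1.81, 2.49]), and the subunit Itga3 with 365, 713 and 681 (1.26). Only 1 of the 4 regions of Fermt1 was kept. Of the list's 151 kept regions 18 were higher (11.9%) and 29 lower (19.2%), the latter near the share over all regions.

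Growth factor families split by member. In the EGF family 3 of 21 were higher and 0 lower (median 0.05): Tgfa with 281, 875 and 844 counts (1.93 [1.75, 2.14]) and the receptors Erbb2 with 126, 286 and 205 (1.47) and Erbb3 with 153, 276 and 381 (1.14). In the FGF family 2 of 16 were higher and 2 lower (median -0.01): Fgf21 with 29, 86 and 78 counts (1.80) and Fgf1 with 396, 663 and 422 (1.04) against Fgf7, a mesenchymal ligand for epithelial receptors, with 46, 4 and 23 (-2.80 [-5.16, -1.77]) and Fgf2 with 444, 151 and 288 (-1.25 [-1.53, -0.98]). Of PDGF and IGF genes 0 of 20 were higher and 1 lower, Pdgfrb with 294, 109 and 126 counts (-1.12). Prostanoid and lipoxygenase genes had 4 of 23 higher and 3 lower (median 0.32). Alox12e, an epidermal lipoxygenase, held 54, 107 and 141 counts (1.26) and Alox15 3, 30 and 21 in its 1 region (2.97 [1.94, 5.98]), whereas Ptgir, the prostacyclin receptor, held 142, 21 and 23 (-2.37 [-3.19, -1.79]).

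Among transcription factors, Sox genes other than Sox2 had 5 of 14 higher and 1 lower (median 0.57), led by Sox11 with 107, 423 and 238 counts (2.26 [1.98, 2.60]). The count of higher Sox genes fell to 3 with total nuclear counts and to 2 by the median of the regions (list median 0.11) or with chromosome medians set to 0. Sox21 (1.25) and Sox6 (1.07) were also higher in sum, with opposite signs under 1 other way of combining regions each. ETS factors had 2 of 21 higher, both known from epithelia, Elf3 with 102, 262 and 310 counts (1.64 [1.33, 2.01]) and Ehf with 162, 386 and 624 (1.54 [1.29, 1.83]), and 1 lower, the endothelial factor Erg with 346, 139 and 380 (-1.01). Elf5 and Spdef, also epithelial factors, held 62, 33 and 110 (-0.58 [-1.26, 0.02]) and 31, 29 and 53 (0.19 [-0.58, 0.98]). Homeobox factors had 1 of 33 higher, Shox2 with 41, 208 and 73 counts (2.59 [2.16, 3.17]), and 3 lower, among them Emx2 with 315, 107 and 157 (-1.24) and Meis2 with 373, 138 and 752 (-1.12). Nuclear receptors had 2 of 32 higher and 2 lower (median 0.19), with Nr2f1 at 140, 277 and 183 counts (1.27) and Rorb at 55, 17 and 105 (-1.31). T-box and GATA factors had 0 of 13 past 2-fold either way (median -0.12).

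Lists of general cell state moved little. None of 22 measured genes of S phase and mitosis (median 0.15) and none of 25 genes of hypoxia and glycolysis (median 0.06) passed 2-fold, and p53 targets had 1 of 24 higher, Perp (1.01), and 1 lower, Cdkn2b with 188, 73 and 581 counts (-1.05). Interferon response genes had 2 of 19 higher and 3 lower (median -0.12). The higher ones included Isg20 (1.19), and the lower ones were Ifit2 with 192, 52 and 111 (-1.55 [-2.05, -1.13]), Ifit3 (-1.16) and Dhx58 (-1.17).

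**Figure D5:**
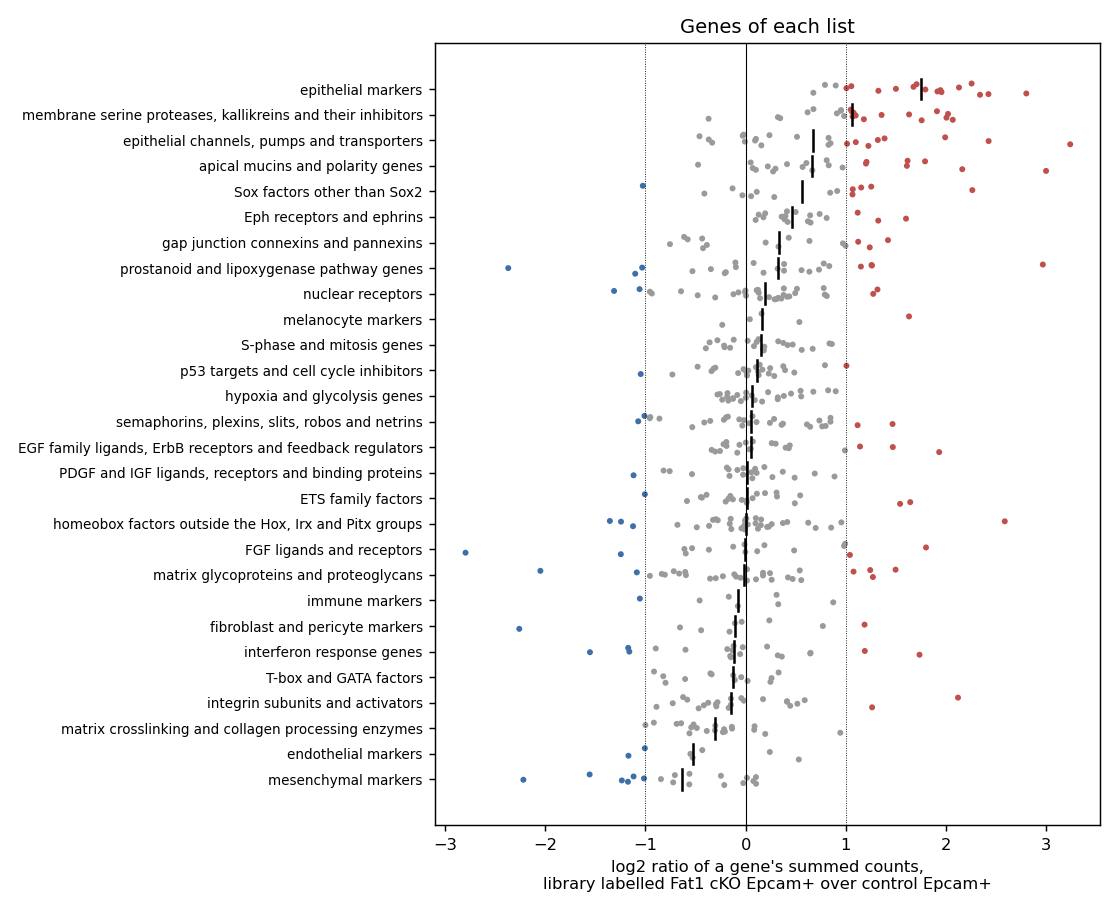
Log2 ratio of each measured gene (points, horizontal axis) in the 22 gene lists and 6 marker lists, ordered by median (black bars), with genes at least 2-fold higher in red and lower in blue. Epithelial markers (median 1.75) and membrane proteases (1.07) stand at the top, matrix crosslinking enzymes (-0.30), endothelial markers (-0.53) and mesenchymal markers (-0.63) at the bottom.

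Several of the genes named from the lists rest on how regions were combined or scaled. Under at least 1 of 5 alternatives given in the closing section, Tiam1, Kcnma1, Glis3, Ptprn2, Tns1, Atp6v1c2, Epha4, Efna5, Plxna2, Spon1, Itga3, Erbb2, Erbb3, Fgf1, Pdgfrb, Alox12e, Erg, Kdr, Rgs5, Emx2, Meis2, Rorb, Perp, Isg20, Ifit3 and Dhx58 did not reach 2-fold. Whole chromosomes also differed: the median log2 ratio over kept regions was highest on chromosome 4 (0.28), 11 (0.25) and 14 (0.25) and lowest on 8 (-0.19), Y (-0.19 over 7 regions), 2 (-0.15) and 10 (-0.12). After every chromosome's median was set to 0, 9798 regions were higher and 8881 lower. DNA copy number was not measured in the files used here.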

How the data were processed

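ATAC-seq was run on sorted cells of mouse skin squamous cell carcinomas, with 3 libraries in 3 groups. The deposited table gives raw counts per merged region (unit: count) and, as other values, a yes or no peak call per library, used only to describe regions. The submitters' processing notes name MACS2 2.1.0.20151222, Bowtie2 2.2.6, Picard, SAMtools and mm10 (GRCm38), without roles. The sources used here give no filters, counting tool, Tn5 shift, peak threshold or removal of duplicates. Columns were assigned to libraries by name, and 0 columns stayed unassigned.

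The 2 mitochondrial regions were left out. TMM factors over the 3 libraries came from edgeR 4.0.16 (R 4.3.3), and log2 ratios used its formula with a prior count of 2, in Python 3.11.15 with pandas 2.3.3, numpy 2.4.6 and scipy 1.17.1. Intervals are Clopper-Pearson at 95%, 0 counts were taken to allow up to 3, and both cover counting error only, since reads that carry no molecular identifiers are not independent molecules. Calling a region or gene needed 20 counts in either library and a ratio of 2-fold or more. There was 1 library per group and so no test, and called means a size, not significance. The calculation was tested on simulated data.

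Gene positions came from a RefSeq table (GRCm38.p6). Each region went to the nearest protein-coding gene body within 50 kb of its midpoint, which 79155 of 95840 regions had, and gene counts are sums over these regions. Distances are to the nearest gene end, either end. Start windows are 250 bases before to 50 after each start. Of 580 listed symbols, 2 matched no gene. The members, gene lists and rules were chosen with earlier results of these data known. The microRNA list, 2 of whose loci matched no entry, and the E-boxes other than CACCTG were added later. Named were, by rule: Fat1 and Epcam; the 5 regions farthest apart each way in each of 3 distance classes and the 8 start windows each way, with at least 50 counts; the 10 genes each way with most regions apart in 1 direction and none in the other; the 5 longest runs each way; and up to 3 genes each way per list. Some genes were left unnamed for length, and Adamts2, Adamts14, Crb3, Elf5, Spdef, St14, Spint2, the printed start windows and the both-way genes were added after their values were seen. Marveld2, Spon1 and Sox6 are named though they lie outside the first 3 of their lists. Alternatives changed the scaling, minimum count, prior count, size rule, gene assignment and chromosome medians. The values of some list members are not reported here.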

Additional observations from a re-analysis of the deposited data

How the results depend on the processing

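With a minimum of 50 counts, 4404 regions were at least 2-fold higher and 3075 lower, and with a 3-fold size rule 5170 and 4183, since fewer regions are tested or pass. Scaling to total nuclear counts gave 8999 higher and 9898 lower, which turns the order of the main counts, 10072 and 8763. The other alternatives, a minimum of 10 counts, a prior count of 0.5, chromosome medians set to 0 and regions with a peak call, left both counts within 1.5 times, as did every way of summing genes. Of the 128 genes past 2-fold in a list or named for their regions, 114 passed with total counts, 119 with regions within 10 kb, 86 with the median of the regions and 111 with chromosome medians set to 0. Of the 104 with a region within 1 kb of a gene end, 81 passed over those regions alone. Among lists, membrane proteases went from 13 higher genes to 8 with total counts, apical mucin and polarity genes from 7 to 4 with the median of the regions, and Sox genes from 5 to 3, 2 and 2 with total counts, the median of the regions and chromosome medians set to 0. Signs turned for Ptgs1 (0.015), Rgs5 (-0.12) and Sox6 (-0.042) over regions near gene ends and for Sox21 (-0.058) as a median of regions; the cause was not tested. The 30 regions, 16 start windows and 19 microRNA regions stayed within their counting intervals under total counts, a prior of 0.5 and chromosome medians set to 0. No paired analysis was possible because each group has 1 library. At this depth a region at 20 counts cannot show a 2-fold difference beyond counting error reliably.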
